A study of Mus musculus with 2 samples.

Results

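The miR-130 and miR-301 family comprises 4 mouse miRNA genes, Mir130a, Mir130b, Mir301 (Mir301a in some annotation releases) and Mir301b. They are 4 of the 1973 annotated miRNA genes with a row of counts. Members were selected by gene symbol, but the family was chosen with its abundance in these same libraries known, so the levels are described and not tested. Small RNA of under 30 nucleotides was sequenced from kidneys of embryos of the mouse strain B6NCrl at 14.5 days, in 1 group of 2 biological replicates, with no treatment, no genetic change and no second condition. Per the labels, each sample held 2 kidneys from a pup, the collection days differed, sex is given as mixed, and both samples carry 1 donor identifier; whether the embryos shared a litter is not stated, and the spread between the samples may be partly technical.

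A miRNA gene is transcribed as a long primary RNA, from which the nuclease Drosha cuts a hairpin and Dicer then releases a duplex. One strand is loaded into an Argonaute protein and guides it to messenger RNAs through its seed, bases 2 to 8 from the 5′ end. MiR-130 and miR-301 share their seed and so overlap in predicted targets. The family has been described as repressing Pparg, the nuclear receptor of fat cell formation, and in endothelial cells miR-130a represses the homeobox genes Meox2 and Hoxa5. At this stage of gestation the ureteric bud branches and nephrons begin to form in the kidney, alongside stroma and growing vessels.

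All 4 hairpins and 7 mature arms of the members were found in the RefSeq table of build GRCm38.p6. The 3′ arms are shown first because they carry the seed AGUGCAA that makes these genes a family; capitals mark the seed.
miR-130a-3p: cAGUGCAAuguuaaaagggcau
miR-130b-3p: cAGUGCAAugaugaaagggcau
miR-301a-3p: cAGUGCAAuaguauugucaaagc
MiR-301b-3p had no entry of its own. The Mir301b hairpin is therefore shown, with the AGUGCAA match in capitals, which starts at its base 56.
Mir301b hairpin: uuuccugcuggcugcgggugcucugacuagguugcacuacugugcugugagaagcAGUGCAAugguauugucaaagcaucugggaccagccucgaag
The messenger RNA heptamer complementary to this seed is TTGCACT. Counted from 1 at the 5′ end, miR-130a-3p and miR-130b-3p were identical at 20 of 22 positions and differed by U11A and A13G, with miR-130a-3p as the first base. MiR-130a-3p and miR-301a-3p were identical over the first 9 bases and at 12 of 22 positions in all. The family thus has a common 5′ end and 2 kinds of 3′ end, one for miR-130 and one for miR-301.

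The opposite arms do not all have the same bases 2 to 8, and they are shown because the counts are per gene and do not separate the arms; capitals again mark bases 2 to 8.
miR-130a-5p: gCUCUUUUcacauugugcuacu
miR-130b-5p: aCUCUUUCccuguugcacuacu
miR-301a-5p: gCUCUGACuuuauugcacuacu
miR-301b-5p: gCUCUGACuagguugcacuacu
MiR-301a-5p and miR-301b-5p share their bases 2 to 8 and were identical at 19 of 22 positions, with U10A, U11G and A12G as the differences and miR-301a-5p as the first base. MiR-130a-5p and miR-130b-5p were identical at 15 of 22 positions and have different seeds.

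The members lie at 3 loci, given here in mm10 coordinates from GENCODE release M21. Mir130a (ENSMUSG00000065484.1) lies at chr2:84741115-84741178 on the minus strand, in no annotated host gene. The nearest annotated genes are Gm19426 on the same strand, 990 bases away, and Ypel4 on the opposite strand, 2459 bases away. Mir301 (ENSMUSG00000065589.1) lies at chr11:87113004-87113089 on the plus strand, in intron 1 of both overlapping transcripts of Ska2, a component of the spindle and kinetochore machinery of dividing cells. Mir130b (ENSMUSG00000065572.1; chr16:17124061-17124142) and Mir301b (ENSMUSG00000076288.1; chr16:17124400-17124496) are on the minus strand 257 bases apart, Mir301b first in the direction of transcription. Both lie in intron 1 of all 3 overlapping transcripts of the protein-coding gene 2610318N02Rik, on its strand.

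The libraries held 5202588 and 3683978 counts on the strand of miRNA genes in replicates 1 and 2, and levels are given as CPM, counts per 1000000 of these. A gene with at least 10 counts in each replicate is called detected, which 345 genes were, the 4 members among them. Reads that mapped to several places were 28.3% and 27.5% of all reads and are in no gene's count. Of the marker lists for the labelled tissue and its cell types, the kidney and posterior body list (which holds Hox-linked miRNAs such as Mir10a) held 25.7% and 25.8% of counts, and the endothelial Mir126a, the epithelial and the stromal lists each held between 2.35% and 4.78%. Within the kidney list, Mir192, Mir194-2 and Mir204 were far below Mir10a, at means of 174, 100.3 and 146 CPM. The other lists were uneven too. In the stromal list the means were 18645 CPM for Mir143 and 6006 for Mir214, against 383 for Mir145a and 3.32 to 215 for the Mir199 genes. In the epithelial list they were 14037 CPM for Mir429, 5062 for Mir200c, 4619 for Mir200b, 719 for Mir141 and 706 for Mir200a. In replicates 1 and 2 the erythroid list summed to 161 and 77.6 CPM, and the hepatocyte gene Mir122 stood at 56.3 and 1074 CPM. In whole tissue, fewer cells of a type and less RNA per cell cannot be told apart.

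Mir130a was the most abundant member, and each member's replicates lay clear of those of the next. Mir130a had 124616 counts in replicate 1 and 97306 in replicate 2, or 23953 and 26413 CPM. Its mean of 25183 ± 1740 CPM (SD, n = 2) placed it at rank 12 of all miRNA genes. Mir130b had 37246 and 29026 counts, or 7159 and 7879 CPM, a mean of 7519 ± 509 CPM (SD, n = 2) at rank 25. These members, which differ from each other at 2 bases of the 3′ arm, were both high in both libraries.

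The miR-301 genes were lower. Mir301 had 5977 and 4626 counts, or 1149 and 1256 CPM, with a mean of 1202 ± 75.6 CPM (SD, n = 2) at rank 80. Mir301b had 482 and 534 counts, or 92.6 and 145 CPM, with a mean of 119 ± 37.0 CPM (SD, n = 2) at rank 169. The lowest Mir130b value was 7159 CPM and the highest Mir301 value 1256 CPM, so the miR-130 and miR-301 genes did not overlap. The median level of detected genes was 114 CPM, so Mir301b lay near the middle of them and the other members above 76.8% of them or more.

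**Figure D1:**
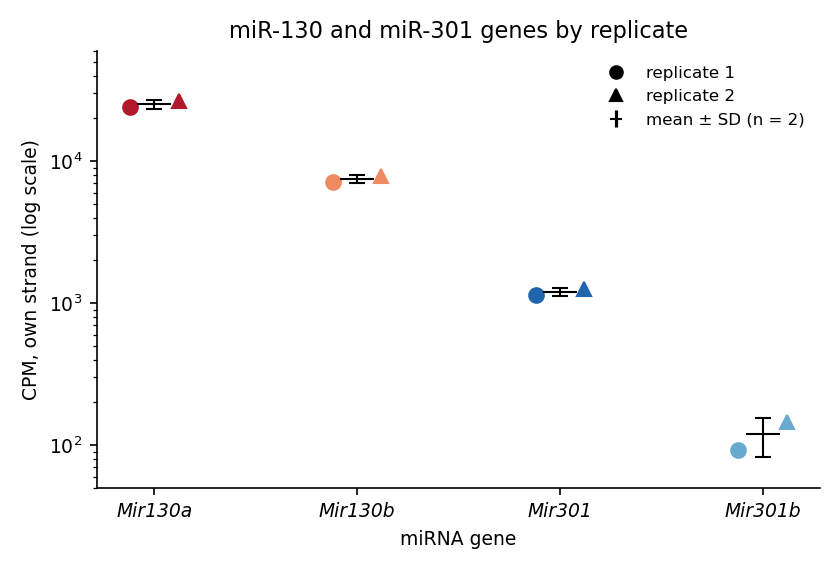
Own-strand CPM (log axis) of the 4 miRNA genes in replicate 1 (circles) and replicate 2 (triangles), with bars for the mean ± SD of 2 replicates. The levels descend from Mir130a at 23953 and 26413 CPM to Mir301b at 92.6 and 145 CPM without overlap between members.

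Annotated hairpin lengths ran from 64 bases for Mir130a to 97 for Mir301b. Per 100 bases of annotated gene, the levels were 39348 ± 2719 CPM for Mir130a, 9170 ± 621 CPM for Mir130b, 1398 ± 87.9 CPM for Mir301 and 122 ± 38.1 CPM for Mir301b (SD, n = 2). The order was the same on this scale. Small RNA reads are about as long as a mature arm, which is 22 or 23 bases in the members, so a longer hairpin does not give more reads in the way a longer messenger RNA does.

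Each member had neighbours in the abundance order whose replicates overlapped its own. The ranges of Mir26b (rank 11) and Mir23b (rank 13) overlapped that of Mir130a, and those of Mir351 (rank 24) and Mir21a (rank 26) overlapped that of Mir130b. The same held for Mir181b-2 and Mir369 around Mir301 and for Mir30c-1 and Mir146 around Mir301b. The exact ranks of the members are therefore not settled by 2 replicates, while the order among the members is the same in both.

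**Figure D2:**
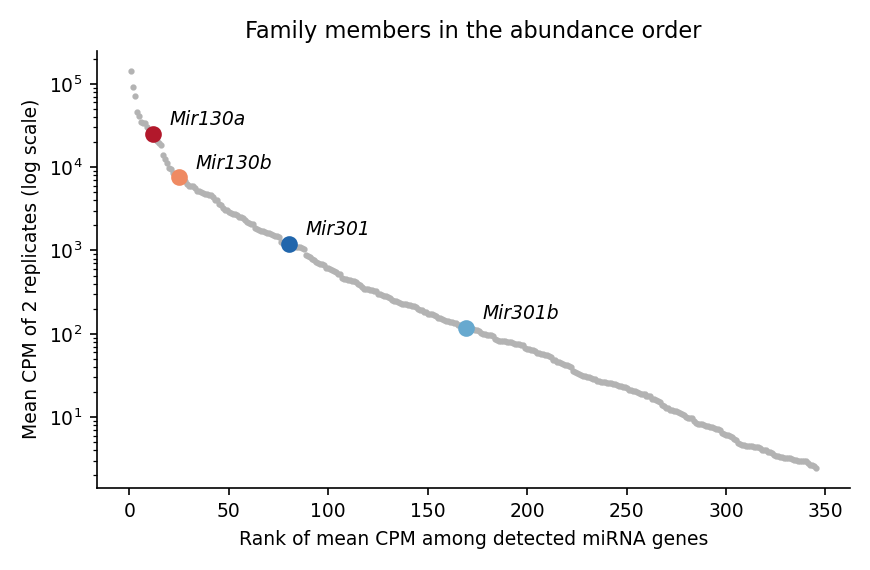
Mean CPM of 2 replicates (log axis) against rank for the 345 detected miRNA genes (grey), with the family coloured. The members are spread along the order, at ranks 12, 25, 80 and 169.

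Together the 4 genes held 3.40% ± 0.236 of own-strand counts (SD, n = 2). The share was 3.24% in replicate 1, with exact Clopper-Pearson limits at 95% of 3.22 and 3.25, and 3.57% in replicate 2, with limits of 3.55 and 3.59. Such intervals cover counting error within 1 library alone and hold no variation between samples. Copies made by PCR were not told apart by molecular identifiers, so even the counting error may be larger than they show. Within the family the shares were nearly fixed. Mir130a gave 74.0% of family counts in both replicates, and Mir130b gave 22.1% in both. Mir301 gave 3.55% and 3.52%. Mir301b gave 0.286% (0.261 to 0.313) in replicate 1 and 0.406% (0.372 to 0.442) in replicate 2, the one member whose intervals did not overlap.

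By locus, the single gene on chromosome 2 held 74.0% ± 0.0235 of the family's counts and the Mir130b and Mir301b locus 22.4% ± 0.0468, with 3.53% ± 0.0232 at Ska2 (SD, n = 2). The miR-130 genes together held 96.1% ± 0.0614 and the miR-301 genes 3.88% ± 0.0614. The seed AGUGCAA was thus carried mostly by molecules with the miR-130 kind of 3′ end, as far as reads of the 3′ arm make up these counts.

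The 6 pairs of members were compared by the log2 ratio of their counts within each library, which needs no scaling between libraries. Mir130a exceeded Mir130b 3.35-fold in both replicates, a log2 ratio of 1.74 ± 0.0020 (SD, n = 2). Mir130b exceeded Mir301, at another locus, 6.23-fold and 6.27-fold, a log2 ratio of 2.64 ± 0.0070. Mir130a exceeded Mir301 by 4.39 ± 0.0090 on the log2 scale. For these 3 pairs, which join 3 separate loci, the counting intervals of replicates 1 and 2 overlapped (1.73 to 1.76 in each for Mir130a over Mir130b), so their ratios differed by less than counting error resolves.

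The members that share a locus differed widely in counts. Mir130b exceeded Mir301b, its neighbour 257 bases away on the same strand, 77.3-fold in replicate 1 and 54.4-fold in replicate 2. The log2 ratio was 6.27 (95% exact interval 6.14 to 6.40) and 5.76 (5.64 to 5.89), a mean of 6.02 ± 0.36 (SD, n = 2). Mir301b made up 1.28% of the counts of the locus in replicate 1 and 1.81% in replicate 2. Mir301 at Ska2 exceeded Mir301b by 3.37 ± 0.37 and Mir130a exceeded it by 7.76 ± 0.36 on the log2 scale. The SD was between 0.36 and 0.37 in each pair with Mir301b and below 0.01 in the 3 pairs without it. The pairs share members, so these 6 values are not independent.

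Uneven counts within a locus were common in these libraries. Among 103 pairs of adjacent detected miRNA genes on 1 strand at most 10 kb apart, the size of the log2 difference had a median of 2.85, with the middle 50% between 1.30 and 4.75. The difference between Mir130b and Mir301b was exceeded by 11 of them. In 9 of those 11 pairs at least 1 gene has 21 bases in a row that also occur in another annotated hairpin, on either strand. Reads of those bases may map to several places, unless the other hairpin is annotated at the same position. Which of these holds was not checked. None of the 4 members has such a stretch. Among the 62 pairs without such genes, 2 pairs had a larger difference, Mir20a over Mir19a and Mir18 over Mir19a, both in the miR-17 cluster and named here after their values were seen. That restriction was added after the data were examined.

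**Figure D3:**
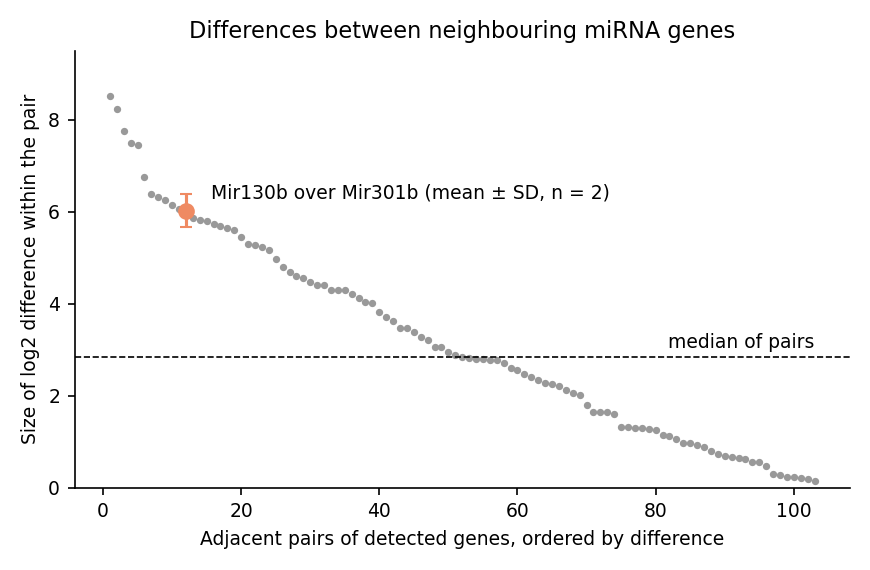
Size of the log2 difference in counts within each of 103 adjacent pairs of detected miRNA genes, ordered from largest to smallest, with the dashed line at the median of 2.85. Mir130b over Mir301b (orange, mean ± SD of 2 replicates) stands at 6.02, below 11 pairs.

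Near copies within the family bear on how reads can be assigned. Across 2201 annotated hairpins and both strands, the closest match of miR-301a-3p outside its own gene was in the Mir301b hairpin, with 1 mismatch over 23 bases. MiR-130a-3p and miR-130b-3p were closest to each other's hairpins, with 2 mismatches. The longest stretch shared with another hairpin was 17 bases for Mir130a, 16 for Mir130b and 16 for Mir301 and Mir301b. A full-length read without errors therefore fits only 1 of the annotated hairpins, while a short or mismatched read of the miR-301 arms may fit both. The number of mismatches allowed in the alignment is not given in the sources used here, and its part in the low Mir301b counts was not tested. Counts on the opposite strand were 1 per library for Mir130a and 0 for the others.

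All 4 members were higher in replicate 2 than in replicate 1, as were 183 of the 345 detected genes. Each gene's counts were compared between the libraries by an exact binomial test (two-sided, TMM-scaled totals), and p was adjusted by Benjamini and Hochberg's method across all 345 detected genes. At an adjusted p below 0.05, 4 of 4 members passed as higher, where 26.7% of detected genes passed as higher and 53.9% in either direction. None of the members reached a log2 ratio of 1 in size, which 3.19% of detected genes did with an adjusted p below 0.05. This test compares 2 libraries and takes only counting error into account. With edgeR's exact test and an assumed coefficient of variation of 0.2 between libraries, 2 of 345 detected genes passed and 0 members did. In that test each had an adjusted p of 1, and 0 were at an unadjusted p under 0.05. The coefficient of variation that edgeR estimated from these same 2 libraries was 0.1993. This test therefore sets their difference against a spread of about its own size, and it cannot show that the members were alike.

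The ratios of 3 members were alike. Replicate 2 over replicate 1 was 0.14 on the log2 scale for Mir130a (95% exact interval 0.13 to 0.16), 0.14 for Mir130b (0.12 to 0.16) and 0.13 for Mir301 (0.076 to 0.19), with binomial adjusted p of 1.21e-119, 5.27e-35 and 1.07e-05. These are small changes of counts that are large enough for a binomial test to resolve. Between the lowest and the highest of these 3 lay 2 other detected genes, Mir140 and Mir467c (named after their values were seen). That window is set by the members' own values and is narrower than the interval of Mir301. The number of genes in it therefore does not show that such a likeness is rare. The median over all detected genes was 0.022, and the median size of the ratio was 0.24.

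Mir301b stood apart from the other members, with a log2 ratio of 0.65 (0.47 to 0.83; binomial adjusted p 4.45e-12). Its interval did not overlap those of the other 3, including that of Mir130b at the same locus. The 2 neighbours' ratios differed by 0.51 on the log2 scale, and 20 of the 103 adjacent pairs differed by more, with a median of 0.20. Of 69 other detected genes with a mean count between 254 and 1016 (Mir301b had 508), 3 had a ratio at least as high and 7 one at least as large in size. Mir122 and the erythroid genes also differed between these libraries, in opposite directions, and their part in the ratio of Mir301b was not tested.

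**Figure D4:**
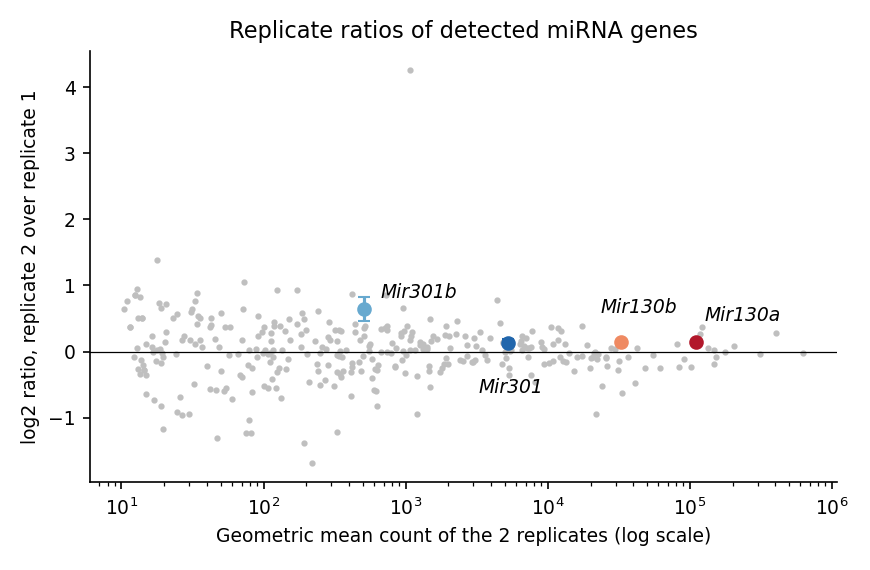
Log2 ratio of replicate 2 over replicate 1 against the geometric mean count (log axis) for 345 detected miRNA genes (grey), with 95% exact counting intervals for the 4 members. Mir130a, Mir130b and Mir301 lie at 0.13 to 0.14 and Mir301b at 0.65.

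Mouse miRNAs outside the family also carry the seed. Of 1738 mature entries in the RefSeq table, 7 have AGUGCAA at bases 2 to 8, and 3 belong to members. Mir130c, Mir6341 and Mir6389, whose mature sequences are shown for comparison with the members, had 0 counts in both libraries.
miR-130c: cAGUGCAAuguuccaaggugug
miR-6341: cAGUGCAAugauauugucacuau
miR-6389: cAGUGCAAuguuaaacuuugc
Taking 3 counts as the limit, their levels could have been as high as 0.577 CPM in the deeper library and 0.814 CPM in the other. These limits leave out reads that mapped to several places, and whether any came from these genes was not checked. Mir721 was not analysed here.

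In 2 other families the seed overlaps this one in another register, and the counts of their genes were lower than those of the leading members. The mature sequences of 1 gene of each family show the overlap, with bases 2 to 8 in capitals.
miR-148a-3p: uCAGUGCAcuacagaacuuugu
miR-19a-3p: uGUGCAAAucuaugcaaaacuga
The 7 capital bases of miR-148a-3p equal bases 1 to 7 of miR-130a-3p, and the first 6 capitals of miR-19a-3p equal its bases 3 to 8. Mir148a stood at 689 and 844 CPM, Mir148b at 322 and 329 CPM and Mir152 at 149 and 194 CPM. In the miR-19 family, part of the miR-17 clusters, Mir19a was at 57.3 and 60.0 CPM, Mir19b-1 at 38.4 and 46.1 CPM and Mir19b-2 at 7.69 and 8.69 CPM. The 6 genes summed to 1264 and 1482 CPM, against 1149 and 1256 CPM for Mir301 alone. Mir19b-1 and Mir19b-2 give the same mature sequence, so reads that fit both are in neither count. The level of the miR-19 family is therefore not known from these counts, and the sum of the 6 genes is a lower limit.

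**Figure D5:**
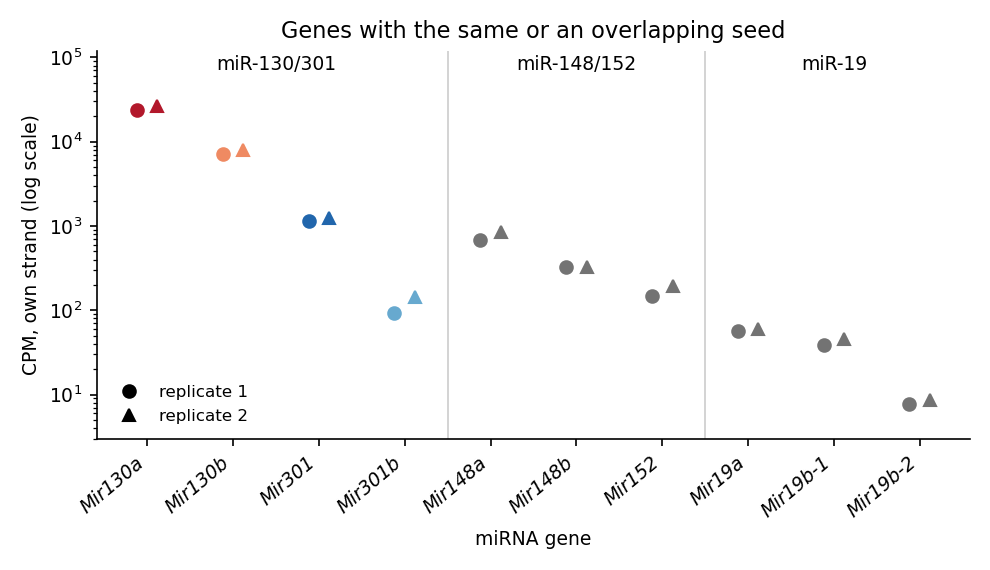
Own-strand CPM (log axis) in replicate 1 (circles) and replicate 2 (triangles) for the 4 family members (coloured) and for 6 genes with an overlapping seed (grey). Mir148a, the highest of the 6 at 689 and 844 CPM, lies below Mir301 and above Mir301b in both replicates.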

How the data were processed

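For each library the authors deposited a table of raw counts of reads by miRNA gene, for both strands, the gene's strand and the opposite strand; per the deposited file descriptions the reads were aligned to mm10 and counted on GENCODE M4. The aligner or counter is not given in the sources used here. The 4 tally rows that name no gene were left out; unmapped, multiply mapped and featureless reads were 16.8%, 28.3% and 4.06% of replicate 1 and 14.1%, 27.5% and 2.91% of replicate 2. Counts on the gene's strand were used. Symbols, positions and hosts came from GENCODE M21, which matched 1894 of 1973 identifiers, and sequences from RefSeq (GRCm38.p6). The members and lists were chosen with earlier results of these data known. With 1 group there is no contrast, so replicates were compared by an exact binomial test with TMM-scaled totals and Benjamini-Hochberg adjustment. The binomial calculation was tested on simulated data with counting error only. That simulation does not show how the test behaves where libraries vary beyond it. By rule, genes named besides the members share or overlap the seed, are next in rank or nearest in log2 CPM to a member, lie within 10 kb of one or host one. Genes of the marker lists and those said to be named after their values were seen are additions. Alternatives were unstranded counts, other scalings (DESeq2 size factors, totals), count minimums, counts per base, a pseudocount of 1 CPM, other pair distances, edgeR's exact test and each replicate alone. Hairpins were folded with RNAfold. Scaling used edgeR 4.0.16 and DESeq2 1.42.0 in R 4.3.3, tests used scipy 1.17.1, and tables and plots were made with pandas 2.3.3 and matplotlib 3.10.9 under Python 3.11.15.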

Additional observations from a re-analysis of the deposited data

How the results depend on the processing

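No paired analysis was possible because there is 1 group. Across 116 recomputed values for 19 results, 0 changed sign, but levels, shares and counts among them could not have done so. Mir130a, Mir130b, Mir301 and Mir301b kept this order of level under every scaling run, unstranded counts and each replicate alone. Scalings that multiply a whole library by 1 factor cannot change the order within it, so those settings did not test the order. Scaling between libraries hardly changed the mean levels. For Mir130a they were 25184.5 CPM with TMM and 25175.8 CPM with DESeq2 size factors, against 25183 CPM in the main setting. Division by gene length and a smaller total changed the levels by construction. Per 100 bases of annotated gene they were 39348 for Mir130a, 9170 for Mir130b and 1398 CPM for Mir301, and with Mir10a, the most abundant gene, out of the total they were 29417, 8783 and 1404 CPM. Per annotated base, the log2 ratios were 2.10 for Mir130a over Mir130b, 4.81 for Mir130a over Mir301, 8.36 for Mir130a over Mir301b and 2.71 for Mir130b over Mir301. The replicate differences rested on counting error alone. EdgeR's exact test was run at an assumed coefficient of variation of 0.2. In it the ratios of 0.14 (Mir130a), 0.14 (Mir130b), 0.13 (Mir301) and 0.65 (Mir301b) had an adjusted p of 1. It called 0 members and 2 of 345 detected genes, both also with a log2 ratio of at least 1. Every binomial setting called 4 of 4 members. Of all genes tested, the main setting called 186 of 345, any count above 0 called 180 of 716 and unstranded counts called 195 of 355. The number of adjacent pairs with a larger difference than Mir130b and Mir301b was 6 of 61 at most 1 kb apart, and 2 of 62 without genes that share 21 bases.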

Other observations

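The detected genes outside the family whose levels lay nearest to each member were found by distance in log2 CPM over the 2 samples, which is a likeness of level and not of a pattern over conditions. Mir26b (distance 0.17, at 24611 and 29570 CPM) and Mir196b, a miRNA of the Hoxa cluster (0.26, at 24590 and 31641 CPM), were nearest to Mir130a. Mir106b, in the cluster within Mcm7 (0.098, at 7441 and 8331 CPM), and Mir21a (0.22, at 7644 and 6875 CPM) were nearest to Mir130b. Mir369 of the imprinted Dlk1-Dio3 region (0.048, at 1115 and 1238 CPM) and Mir455 (0.11, at 1241 and 1247 CPM) were nearest to Mir301. Mir146 (0.041, at 94.8 and 143 CPM) and Mir30c-1 (0.19, at 104 and 136 CPM) were nearest to Mir301b. Both hold 21 bases that also occur in another annotated hairpin, on either strand. Their own levels may therefore be uncertain, but whether their reads mapped to several places was not checked.

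The predicted hairpins differed in stability and composition. RNAfold gave minimum free energies of -22.1 kcal/mol for Mir130a, -30.1 for Mir130b, -37 for Mir301 and -39.1 for Mir301b, and the G and C content was 45.3%, 56.1%, 48.8% and 53.6%. The order of these energies, not corrected for length, was the reverse of the order of counts, which was noticed after both were known. Annotated length rose in the same order, at 64, 82, 86 and 97 bases, so length and energy cannot be told apart here. Relative to length, the energy was lowest for Mir301 and not for Mir301b, so the exact reverse order did not hold. With 4 genes this is a description of these sequences only.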
